A study of Zea mays with 18 samples.

Results

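The miR390 family was followed through the growing leaf of maize (Zea mays, hybrid ADA313) with and without cold nights. The members are all probe sets of the array table that are named for miR390, which gave 4 of 228 maize probe sets: zma-miR390a-5p, zma-miR390b-5p, zma-miR390a-3p and zma-miR390b-3p. The a and b copies share every value of the table in each arm, so the 4 members form 2 of the 147 distinct profiles, the 5p profile and the 3p profile, and the array cannot tell the copies apart. Both MIR390 genes were found in RefSeq's gene table for the assembly Zm-B73-REFERENCE-NAM-5.0, where MIR390a overlaps the long non-coding RNA LOC118476192 and MIR390b overlaps no other listed gene. Coordinates are left out because the array table names no build.

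The study measured leaf 4 of seedlings on 18 arrays in 6 groups of 3, which the labels call biological replicates. Chilled seedlings had nights at 4 °C and days at 25 °C, and control seedlings had nights at 20 °C and the same days. Light (15000 lux, for 16 h a day with 8 h of dark) and a relative humidity of 70% were common to both. Each treatment was sampled at the meristem, in the zone of elongation and in mature tissue, successive stages from dividing to full-grown cells. The length of the chilling, the cutting of the zones and any pooling of seedlings are not given in the labels, and the table holds miRNAs only, so the zones could not be checked against marker genes.

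A miRNA is cut as a duplex from a hairpin, and its arms are named for the 5′ and the 3′ side of that hairpin. In the miR390 family the 5p arm is the guide: it is loaded into ARGONAUTE7 and directs the cutting of TAS3 transcripts, non-coding RNAs that are then turned into phased small interfering RNAs (tasiR-ARFs) against the auxin response factors of the ARF3 group. The 3p arm is the passenger strand, with no established target in this pathway. In maize leaves this pathway takes part in setting the upper and lower leaf side, and mutants of leafbladeless1, which encodes the SGS3-like protein of the same pathway, can make leaves that lack a flat blade.

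The values are the authors' averages of log2 signal, 1 per group, and no value of a single array was analysed here. Errors were recovered from the ANOVA p-value that the authors deposited for each probe set. This gave a moderated SD between arrays of 0.26 log2 units for the 5p profile and 0.56 for the 3p profile, or a standard error of 0.15 and 0.32 for a group average. Whether single arrays of different groups overlapped cannot be given. Over all 147 profiles the averages ran from 0.59 to 12.65, the recovered SD had a median of 0.34, and between 48 and 91 profiles lay under log2 2 in a group, a level taken here as background. In the mature zone 91 profiles of chilled leaves and 85 of control leaves were under it.

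The guide arm gave a high signal in all groups. In chilled leaves the authors' average for the miR390a/b-5p profile was 11.31 in the meristem, 11.28 in the elongation zone and 10.22 in the mature zone. The control leaves had 11.50, 11.45 and 9.82, by zone in that order. The 4 averages of meristem and elongation zone thus lay within a narrow band, and both mature averages lay below them. By signal the profile ranked 9th, 10th and 17th of 147 along the chilled zones and 7th, 9th and 17th along the control zones. A rank by signal is a description only, because probes differ in how strongly they bind.

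The passenger arm had a lower signal than the guide arm in every group and spanned a wider range. In chilled leaves the authors' average for the miR390a/b-3p profile was 9.52 in the meristem, 7.42 in the elongation zone and 1.85 in the mature zone. The control leaves had 9.32, 8.53 and 4.80, by zone in that order. The meristem averages were the highest, and the chilled mature zone was the only group in which the passenger arm was under the background level. Its rank by signal was 25th, 40th and 62nd of 147 along the chilled zones and 26th, 33rd and 49th along the control zones. From lowest to highest average the 3p profile spanned 7.67 log2 units and the 5p profile 1.68.

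**Figure D1:**
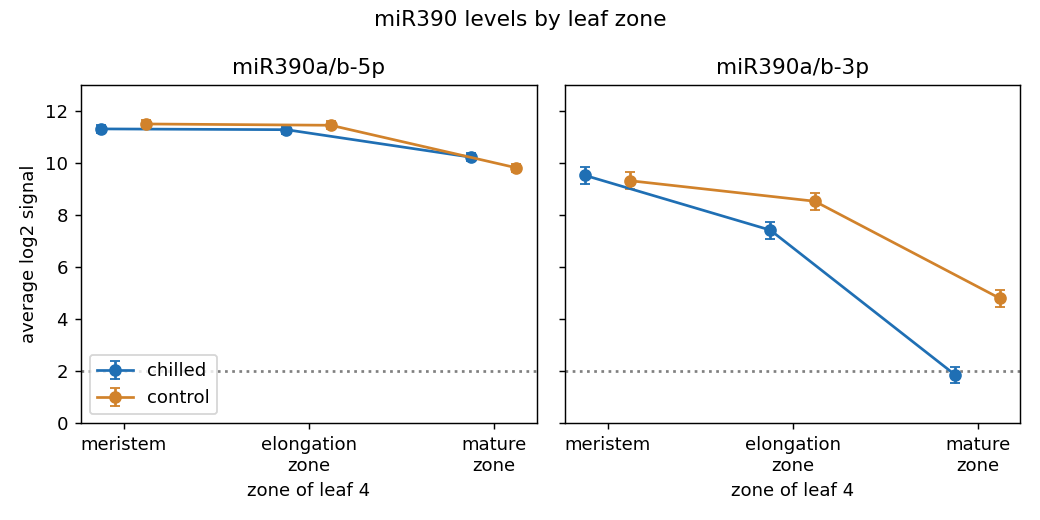
The panels plot the authors' average log2 signal of the miR390 5p and 3p profiles in the 3 leaf zones, with chilled leaves in blue and control leaves in orange. Bars are the recovered standard error of an average (0.15 for 5p, 0.32 for 3p), and the dotted line is the background level of log2 2; the 5p averages stay between 9.82 and 11.50, and the 3p average of the chilled mature zone is 1.85.

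Ordered by level, the 5p averages ran from the control meristem through the control elongation zone, the chilled meristem and the chilled elongation zone to the chilled and then the control mature zone. Only the step between the chilled mature zone and the chilled elongation zone passed the threshold of an adjusted p of 0.05 (-1.06, SE 0.21, adjusted p = 0.00108). The other 4 steps between neighbours, of 0.03 to 0.40 log2 units in size, did not pass. Ordered in the same way, the 3p averages ran from the chilled and the control meristem through the control and the chilled elongation zone to the control and last the chilled mature zone. Its 2 lowest steps passed, and its 3 upper steps did not. The control mature zone lay 2.62 below the chilled elongation zone (SE 0.46, adjusted p = 0.000374 in the moderated test), a step that changes zone and treatment together. The chilled mature zone lay a further 2.95 below the control mature zone, which did not pass with quantile normalization or median subtraction. The order was read from the averages that were tested. The sign of each step was thus fixed, and the p-values make no allowance for the ordering. With median subtraction the chilled mature zone had the highest 5p average, at 13.10.

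The first comparison asked whether cold nights changed miR390 within a zone. In the mature zone the passenger arm fell with chilling: the miR390a/b-3p average was 1.85 in chilled and 4.80 in control leaves, a difference of -2.95 log2 units (SE 0.46, 95% interval -3.93 to -1.97, adjusted p = 0.000367 in limma's moderated test). The chilled average is under the background level, so the size of the fall is not exact; with averages under log2 2 set to 2 it was -2.80. In such pieces of leaf, fewer cells with the miRNA and less of it per cell cannot be told apart. The guide arm did not pass in that zone, with 10.22 in chilled and 9.82 in control leaves (0.40, SE 0.21, 95% interval -0.06 to 0.86, adjusted p = 0.354). Of all 228 probe sets, 14% passed in this comparison, 9.65% as lower and 4.39% as higher under chilling. By size the 3p difference ranked 7th of the 147 profiles and the 5p difference 46th.

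The passenger arm's fall depended on the scaling between groups. With quantile normalization of the 6 columns the difference was -0.91 (adjusted p = 0.209), and with subtraction of each column's median it was -0.55 (adjusted p = 0.262). The 5p difference became 2.81 with median subtraction (adjusted p = 1.17e-08), a setting that raised all values of the chilled mature zone by 2.41 relative to the control mature zone. That shift comes from medians over all 228 probe sets, in which a shared profile counts once for each of its probe sets. Over the 147 distinct profiles the medians were 1.55 in the chilled and 1.68 in the control mature zone, close together and both under the background level. Subtraction of those medians was not tested.

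In the elongation zone neither arm passed. The miR390a/b-3p average was 7.42 in chilled and 8.53 in control leaves (-1.11, SE 0.46, 95% interval -2.09 to -0.13, unadjusted p = 0.0288, adjusted p = 0.212). It was the second lowest difference of the 147 profiles in this zone, where 0.877% of the probe sets passed. The miR390a/b-5p average was 11.28 in chilled and 11.45 in control leaves (-0.17, 95% interval -0.63 to 0.29, adjusted p = 0.794).

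In the meristem, where 8.33% of the probe sets passed, neither arm did. The 3p average was 9.52 in chilled and 9.32 in control leaves (0.20, 95% interval -0.78 to 1.18, adjusted p = 0.864). The 5p average was 11.31 in chilled and 11.50 in control leaves (-0.19, 95% interval -0.65 to 0.27, adjusted p = 0.777). For the guide arm the intervals of all 3 zones lie within 1 log2 unit of no difference.

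Averaged over the zones with equal weight, the 3p difference between chilled and control leaves was -1.29 (SE 0.26, 95% interval -1.85 to -0.72, adjusted p = 0.00457), in a comparison where 18.4% of the probe sets passed. This fall did not pass with quantile normalization (-0.30, adjusted p = 0.521) or median subtraction (-0.43, adjusted p = 0.147). The 5p difference over the zones was 0.01 (SE 0.12, 95% interval -0.25 to 0.28, adjusted p = 0.941), beside -0.04 with quantile normalization and 0.87 with median subtraction (adjusted p = 0.905 and 1.78e-05).

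**Figure D2:**
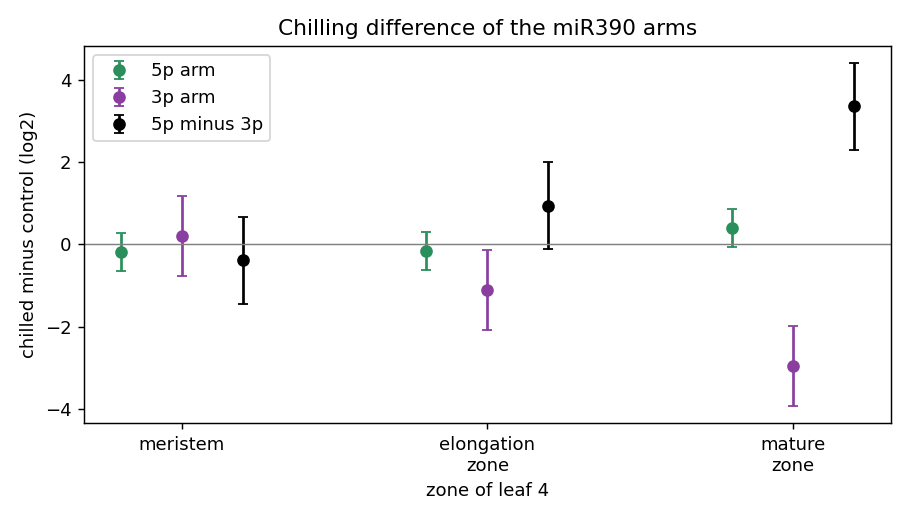
Points show the difference of chilled minus control leaves in log2 units for the 5p arm, the 3p arm and the 5p minus the 3p arm in each zone, with 95% intervals from the recovered errors. The 3p difference is 0.20 in the meristem, -1.11 in the elongation zone and -2.95 in the mature zone (-0.91 and -0.55 there with the 2 other scalings), while the 5p differences lie between -0.19 and 0.40.

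The chilling difference of the passenger arm was then compared between zones. It was 3.15 log2 units lower in the mature zone than in the meristem (SE 0.64, 95% interval -4.53 to -1.77, adjusted p = 0.00826), where 8.33% of the probe sets passed. The F test over all zones also passed (adjusted p = 0.0227), as it did for 7.02% of the probe sets. Between mature and elongation zone the differences differed by -1.84 (SE 0.64, adjusted p = 0.104), and between elongation zone and meristem by -1.31 (SE 0.64, adjusted p = 0.591), neither of which passed. In these comparisons 2.19% and 0% of the probe sets passed in limma's test, and 17 had an unadjusted p under 0.05 in the second of them. With quantile normalization the value for mature zone against meristem was -1.59 (adjusted p = 0.101), and with median subtraction it was -0.88 (adjusted p = 0.209).

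For the guide arm no difference between zones in the chilling effect passed. It was 0.59 for mature zone against meristem (SE 0.30, 95% interval -0.06 to 1.24, adjusted p = 0.348), 0.57 for mature against elongation zone (adjusted p = 0.380) and 0.02 for elongation zone against meristem (adjusted p = 0.989). The F test gave an adjusted p of 0.455. With median subtraction the value for mature zone against meristem was 2.86 (adjusted p = 7.82e-07) and for mature against elongation zone 2.96 (adjusted p = 6.73e-07).

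**Figure D3:**
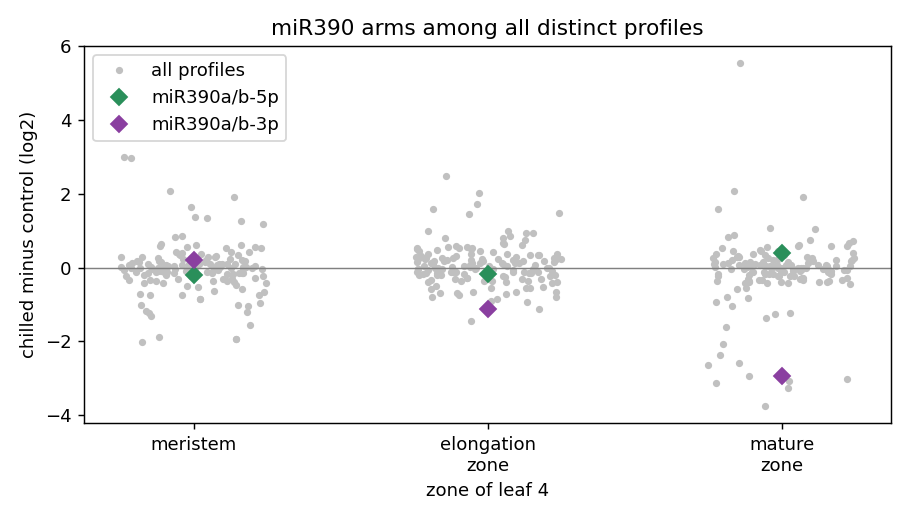
Each grey dot is 1 of the 147 distinct profiles, placed by its difference of chilled minus control leaves in log2 units within a zone, with the miR390 5p profile as a green and the 3p profile as a purple diamond. The 3p diamond moves out of the central cloud toward -2.95 in the mature zone, where the 5p diamond is at 0.40; the spread of dots across a zone is for display.

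The second set of comparisons followed miR390 along the leaf. In chilled leaves the 3p average fell by 2.10 log2 units between elongation zone and meristem (7.42 against 9.52, SE 0.46, adjusted p = 0.00161), where 51.8% of the probe sets passed and 14.9% fell. It fell by a further 5.57 between mature and elongation zone (1.85 against 7.42, adjusted p = 1.91e-07), where 64.9% passed and 54.8% fell. Over the whole span the fall was 7.67 (1.85 in the mature zone against 9.52 in the meristem, 95% interval -8.65 to -6.69, adjusted p = 3.78e-09), where 77.6% passed and 44.7% fell. It ranked 5th from the lowest of the 147 differences, and the end point is at background.

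In control leaves the passenger arm did not pass between elongation zone and meristem (8.53 against 9.32, -0.79, SE 0.46, adjusted p = 0.182), a step that 46.5% of the probe sets passed. It fell by 3.73 between mature and elongation zone (4.80 against 8.53, adjusted p = 1.75e-05), where 49.6% passed and 42.1% fell. Over the whole span it fell by 4.52 (4.80 in the mature zone against 9.32 in the meristem, 95% interval -5.50 to -3.54, adjusted p = 1.28e-06), where 58.3% passed and 39% fell. All 5 of these falls along the chilled and the control leaf stayed below 0 and past the threshold in both other scalings, and those that end in mature tissue were smaller there. Between mature and elongation zone of chilled leaves the fall was -3.02 with quantile normalization and -1.90 with median subtraction. With median subtraction it was -3.99 for the chilled mature zone against the meristem. In control leaves that scaling gave -2.45 for mature against elongation zone and -3.11 for mature zone against meristem.

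The guide arm fell along the leaf in smaller steps. In chilled leaves its average was 10.22 in the mature zone, against 11.28 in the elongation zone (-1.06, SE 0.21, adjusted p = 0.00108) and 11.31 in the meristem (-1.09, SE 0.21, adjusted p = 0.000508). Both falls also passed with quantile normalization, at -0.73 and -0.82, and both turned into rises of 2.61 and 2.60 with median subtraction. In control leaves it was 9.82 in the mature zone, against 11.45 in the elongation zone (-1.63, SE 0.21, adjusted p = 3.67e-05) and 11.50 in the meristem (-1.68, SE 0.21, adjusted p = 1.49e-05). With median subtraction these were -0.35 (adjusted p = 0.193) and -0.27 (adjusted p = 0.261). Between elongation zone and meristem the guide arm did not pass in chilled leaves (-0.03, 95% interval -0.49 to 0.43, adjusted p = 0.919) or in control leaves (-0.05, 95% interval -0.51 to 0.41, adjusted p = 0.911).

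Of the variation between the 6 averages, zones made up 95.7% for the 5p profile and 89.1% for the 3p profile, against a median of 89.5% over the 147 profiles. Chilling over all zones made up 0.0103% for the 5p and 5.45% for the 3p profile, with a median of 2.53% over the profiles. The part in which chilling and zone act unequally was 4.32% for the 5p and 5.50% for the 3p profile, with a median of 5.74%. In the authors' deposited table the ANOVA p-value over all conditions was 8e-06 for the 5p arm, with an FDR p-value of 0.000216. In the authors' deposited table it was 9.48e-09 for the 3p arm, with an FDR p-value of 3e-06. These place the 3p profile 7th and the 5p profile 26th of 147 by the smallest p.

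The arms were then compared with each other. Both arms are read on the same arrays, so a scaling that adds 1 constant per group leaves the gap between them unchanged. In chilled leaves the gap of 5p minus 3p in average log2 signal was 1.79 at the meristem, 3.86 in elongating and 8.37 in mature tissue. The control leaves had gaps of 2.18, 2.92 and 5.02, by zone in that order. The gap was thus widest in both mature zones, and wider there in chilled than in control leaves. The size of a gap carries the unequal binding of the probes. The gap of the chilled mature zone, and each change computed from it, rests on a 3p average under the background level and is not exact.

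With chilling the gap widened by 3.35 log2 units in the mature zone (SE 0.50, 95% interval 2.30 to 4.40, adjusted p = 8.52e-05). The adjustment covers the 65 distinct pairs of arms in the table, of which 13.8% passed in this comparison, 6.15% with a higher and 7.69% with a lower value of 5p minus 3p under chilling. These are signed changes, and in pairs whose 3p signal is the stronger a higher value is a narrower gap. With the errors of the arms taken as fully opposed, which gives the largest possible SE, the adjusted p was 0.00229. With quantile normalization the widening was 1.32 (adjusted p = 0.0540) and did not pass. In the elongation zone the gap differed by 0.94 between chilled and control leaves (95% interval -0.11 to 1.99, adjusted p = 0.410), and in the meristem by -0.39 (95% interval -1.44 to 0.66, adjusted p = 0.885). In each of these 2 zones 0% of the 65 arm pairs passed, and 9 in the elongation zone and 5 in the meristem had an unadjusted p under 0.05 in the test from limma's moderated variances.

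The other pairs that passed with a higher 5p minus 3p in the chilled than in the control mature zone were miR169m (-0.67 against -3.58, a change of 2.91, adjusted p = 0.000129), miR398a (5.82 against 0.25, a change of 5.57, adjusted p = 0.00605) and miR159e (-0.20 against -3.50, a change of 3.30, adjusted p = 8.52e-05). The gap thus widened in miR398a, as in miR390, and narrowed in miR169m and miR159e. It also widened in the 5 pairs that passed with a lower value, whose 3p signal was the stronger in both mature zones. The largest of these were miR166h (-7.16 against -3.31, a change of -3.85, adjusted p = 0.000129) and miR166b/d (-4.93 against -1.13, a change of -3.80, adjusted p = 0.000255). Their 5p arms differed by -3.13 and -3.08 with chilling, and their 3p arms by 0.72. Named after their values were seen, these pairs differ in which arm moved. The miR398a-5p level differed by 5.54 and miR398a-3p by -0.03 between chilled and control leaves. In miR169m, miR159e and miR390 the 3p arm had the large difference, at -3.26, -3.03 and -2.95, beside 5p differences of -0.35, 0.27 and 0.40.

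The widening of the miR390 gap with chilling was larger in the mature zone than in the meristem by 3.74 (SE 0.71, 95% interval 2.25 to 5.23, adjusted p = 0.00129), which 7.69% of the arm pairs passed. It also passed with quantile normalization (2.30, adjusted p = 0.0343). Between mature and elongation zone it was 2.41 (SE 0.71, adjusted p = 0.0515), and between elongation zone and meristem 1.33 (adjusted p = 0.547); neither passed. Along chilled leaves the gap was wider by 6.58 in the mature zone than in the meristem (SE 0.50, adjusted p = 1.08e-09). It was 4.59 with quantile normalization, and 66.2% of the 65 pairs passed in this comparison. Along control leaves it was wider by 2.84 (adjusted p = 9.79e-05), where 61.5% passed.

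The step between elongation zone and meristem widened the gap by 2.07 in chilled leaves (adjusted p = 0.00244), where 41.5% of the pairs passed, and was 0.74 in control leaves (adjusted p = 0.284), where 20% passed. Between mature and elongation zone the gap was wider by 4.51 in chilled leaves (adjusted p = 1.19e-06, and 2.29 with quantile normalization) and by 2.10 in control leaves (adjusted p = 0.00223), and 58.5% of the pairs passed in each. Over the zones, the mean chilling difference of the gap was 1.30 (SE 0.29, adjusted p = 0.00516), where 12.3% passed. It did not pass with quantile normalization (0.26, adjusted p = 0.575) or with fully opposed errors (adjusted p = 0.0682). Across the 6 groups the 2 arms had a Pearson correlation of 0.86, over averages that share their arrays.

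The guide arm stood among the highest signals of the table, and the passenger arm of the chilled mature zone stood under the background level. With averages under log2 2 set to 2, the 3p difference in the mature zone was -2.80 and the widening of the gap 3.20, and both passed. What a limit of the signal at either end adds to the differences was not tested.

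**Figure D4:**
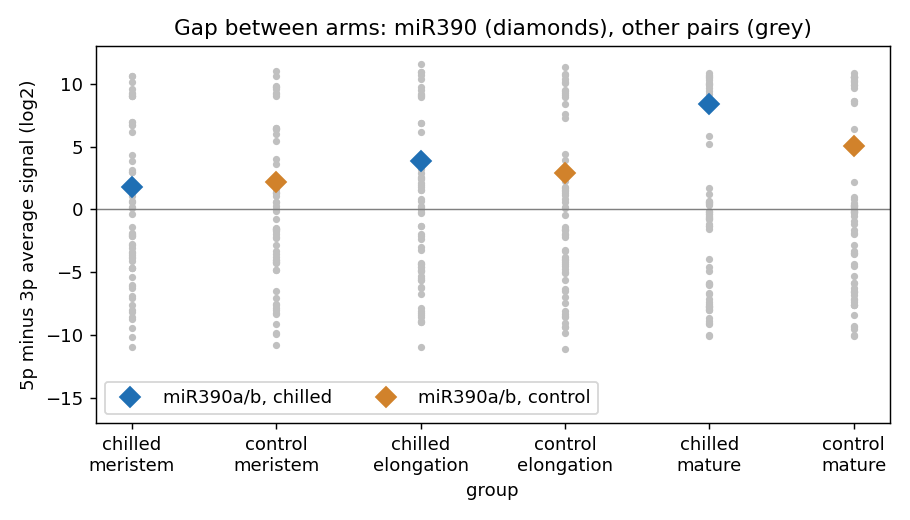
The gap of 5p minus 3p average log2 signal is plotted for the 65 arm pairs in each group, with miR390 as diamonds (blue in chilled, orange in control leaves) and the other pairs as grey dots. The miR390 gap is 1.79 and 2.18 in the chilled and control meristem and 8.37 and 5.02 in the chilled and control mature zone.

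The profiles most like each arm were ranked by Pearson's r over the 6 averages, among the 145 profiles of other families. The profile most like miR390a/b-3p was miR166b/d-5p (r = 0.995), a passenger arm of the family whose guide targets HD-ZIP III factors of the upper leaf side. Its average was 11.52, 10.11 and 3.71 along the chilled zones and 11.17, 10.91 and 6.79 along the control zones. It fell with chilling in the mature zone by 3.08 (SE 0.48, adjusted p = 0.000367), and by 1.20 with quantile normalization and 0.68 with median subtraction. Next came miR160a-3p (r = 0.980) and miR160d-3p (r = 0.973), passenger arms of a family whose guide targets other auxin response factors.

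The chilled mature averages of these miR160 arms were 2.36 and 1.12, against 4.95 and 2.16 in the control mature zone. Their differences of -2.59 (adjusted p = 0.00591) and -1.04 (adjusted p = 0.0483) passed. The miR160a-3p difference was -0.13 with quantile normalization and -0.19 with median subtraction. The miR160d-3p difference, whose chilled average is under the background level, was -2.87 and 1.37 in these scalings. Positions 4 and 5, miR399g-5p (r = 0.972) and miR2118b (r = 0.960), were under the background level in all 6 groups, and their likeness is one of shape only.

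The profile most like miR390a/b-5p was miR394a/b-5p (r = 0.977), of a family that targets an F-box gene. Its average was 5.73, 5.52 and 1.27 along the chilled zones and 5.78, 5.87 and 1.44 along the control zones. The other 4 all belonged to miR171, whose guide arm targets GRAS factors: the shared 3p profile of miR171d, e, i and j (r = 0.972), miR171f-3p (r = 0.971), the shared 3p profile of miR171l and m (r = 0.970) and miR171d/e-5p (r = 0.970). None of these 5 profiles passed between chilled and control mature zone in limma's test, and none had an unadjusted p under 0.05; the differences lay between -0.17 and 0.48. With 6 averages each and 145 candidates, these correlations describe likeness and carry no test.

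**Figure D5:**
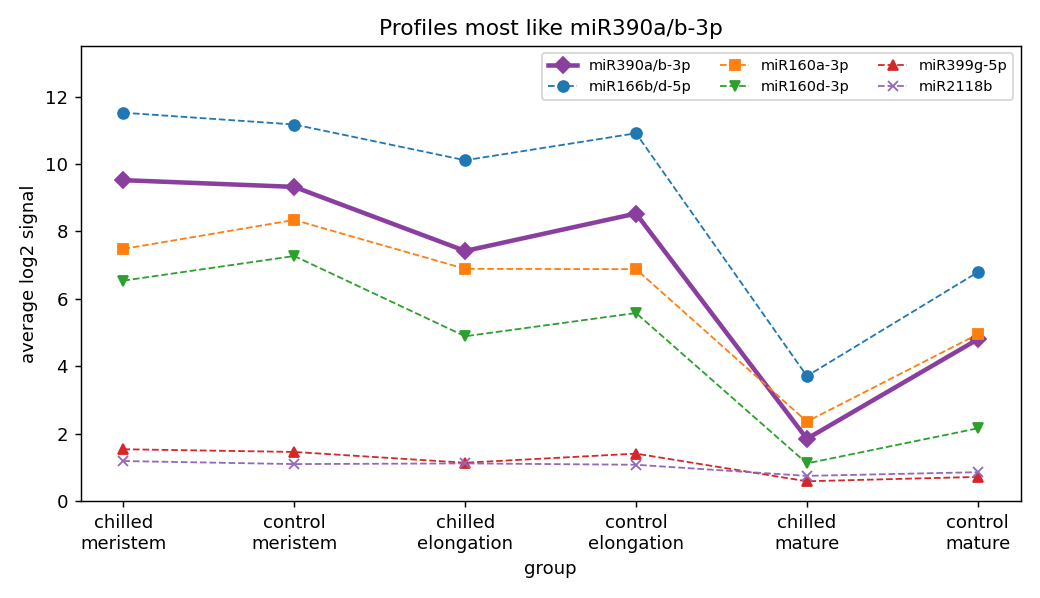
The authors' average log2 signal of miR390a/b-3p (thick line) is plotted in the 6 groups with the 5 profiles of other families that have the highest Pearson's r with it. miR166b/d-5p lies above it throughout, at 3.71 in the chilled and 6.79 in the control mature zone, and miR399g-5p and miR2118b stay under log2 2.

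Other miRNAs with roles near the pathway were counted in 3 lists without miR390. The auxin list holds miR160 and miR167, which target auxin response factors, and miR393, which targets auxin receptors. In the mature zone 2 of its 28 members fell with chilling, miR160a-3p and miR160d-3p, and none rose, where 9.65% of all probe sets fell and 4.39% rose. With median subtraction 1 of the 2, miR160d-3p, was above 0, and miR160a-3p was close to 0 in both other scalings. The median difference of the list was 0.05, beside 0 over all probe sets. In the elongation zone, where 0.439% of all probe sets rose, 1 member rose, miR167e-3p (4.84 in chilled and 2.83 in control leaves, 2.01, adjusted p = 0.0325 in limma's test). In the meristem, where 8.33% of all probe sets passed, none of the 28 passed in limma's test, with 3 at an unadjusted p under 0.05. From meristem to mature zone 6 fell and 19 rose in chilled leaves, where 44.7% of all probe sets fell and 32.9% rose. In control leaves 8 fell and 14 rose, where 39% of all fell and 19.3% rose. Counted as 17 distinct profiles, 5 fell and 9 rose in chilled leaves, and 7 fell and 6 rose in control leaves. With median subtraction 4 of the 6 and 2 of the 8 falls were above 0.

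The list of triggers of phased small RNAs holds miR482, miR2118 and miR2275. None of its 15 members passed between chilled and control leaves in limma's test in any zone. Of all probe sets 8.33% passed in the meristem, 0.877% in the elongation zone and 14% in the mature zone. At those shares few of 15 members would pass. The median differences of the list were 0.10 in the meristem, 0.04 in the elongation zone and -0.01 in the mature zone. The matching medians over all probe sets were -0.05, 0.12 and 0, and 0, 1 and 3 members had an unadjusted p under 0.05. Between mature and elongation zone 5 of the 15 fell and 6 rose in chilled leaves, where 54.8% of all probe sets fell and 10.1% rose. In control leaves 2 fell and 3 rose, where 42.1% of all fell and 7.46% rose. Counted as 14 distinct profiles, 5 fell and 5 rose in chilled leaves, and 2 fell and 3 rose in control leaves. The largest difference upward between mature and elongation zone was that of miR2275d-3p, 1.29 in chilled and 1.01 in control leaves. In chilled leaves the 3p averages of miR2275a, miR2275b and miR482 were higher in the mature than in the elongation zone, by 0.40, 0.49 and 0.28. These last 3 lay under the background level in both zones. With median subtraction all 5 falls in chilled leaves and 1 of the 2 in control leaves were above 0. Among the falls, miR2275a-5p was lower in the mature than in the elongation zone of chilled leaves (0.83 against 3.79, -2.96, adjusted p = 2.07e-05) and of control leaves (1.20 against 3.44, -2.24, adjusted p = 0.000507), but with median subtraction the difference in chilled leaves was 0.71. Both mature averages of miR2275a-5p are under the background level, so the size of these falls is not exact.

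The leaf polarity list holds the 26 probe sets of miR166. In the mature zone 4 of them (3 of 15 distinct profiles) fell with chilling and none rose, where 9.65% of all probe sets fell and 4.39% rose. Among the falls were miR166h-5p (1.48 in chilled and 4.61 in control leaves, -3.13, adjusted p = 0.000141) and the miR166b/d-5p profile. With median subtraction 1 of the 4 was above 0. The median difference was 0.15 over the 26 probe sets, beside 0 over all probe sets, and -0.24 over the 15 profiles, beside -0.01 over all profiles. In the meristem 2 of the 26 fell, miR166m-5p (7.33 in chilled and 8.33 in control leaves) and miR166c-5p (7.40 in chilled and 8.37 in control leaves). Both had an adjusted p of 0.0491 in limma's test, close to the threshold. Of all probe sets 8.33% passed there, counted in both directions. These were 19 probe sets, against 3 with median subtraction and 3 with averages under log2 2 set to 2. From elongation to mature zone 25 of the 26 (14 of 15 profiles) fell in chilled and in control leaves, where 54.8% and 42.1% of all probe sets fell. With median subtraction 17 of these falls in chilled and 3 in control leaves were above 0, and with quantile normalization 0 and 2 were.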

How the data were processed

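Per the labels' protocols, Trizol was used to isolate total RNA, of which 10 µg was poly(A)-tailed and biotin-labelled (FlashTag HSR). The submitters' processing notes name Affymetrix Expression Console, without a version, its settings or the normalization between arrays. Per the file headers, the authors deposited a bi-weight average of log2 signal for each group, and an ANOVA p-value over all conditions with an FDR p-value. The ANOVA p-values reach 0.040982 in the authors' deposited table, so the probe sets are preselected. In this report 18 arrays in 6 groups of 3 were used as group averages; there is no sequencing depth, and it is the number of arrays that limits the precision.

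The residual variance of each probe set was computed as 3 times the variance between averages, for 3 arrays per group, divided by F. The F was that of the deposited p-value, taken to come from a one-way ANOVA with 5 and 12 degrees of freedom. The headers name only an ANOVA over all conditions, so this form is an assumption on which every error here rests. The residual variance was moderated with squeezeVar of limma 3.58.1 in R 4.3.3 (13.94 degrees of freedom in total). Contrasts were tested with two-sided moderated tests, adjusted by Benjamini-Hochberg over all 228 probe sets, at 0.05. This takes equal spread in all groups and a bi-weight average for a mean, and preselection means that the adjusted p-values do not strictly hold their rate. It also takes all 18 arrays as independent, and the labels do not say whether the zones of a replicate share plants. The p-value of the 5p arm is rounded to 6 decimals, which puts its recovered SD between 0.255 and 0.258. Arm gaps were tested over 65 distinct pairs with uncorrelated errors and Welch-Satterthwaite degrees of freedom. The method was tested on simulated data. P-values measure the spread between arrays.

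Named were all members, the 5 profiles of other families most correlated with each arm, and per list and comparison up to 2 called profiles of largest difference, of which examples are given. Members and lists were chosen with earlier results of these data known. Alternatives were quantile normalization, median subtraction, no moderation, 1 probe set per profile and a floor at log2 2. Both scalings were computed over all 228 probe sets, so shared profiles counted once for each of their probe sets. The mature sequences are not printed.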

Additional observations from a re-analysis of the deposited data

Results flagged for a closer look

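The chilling difference of miR390a/b-3p was flagged because the test of its difference between zones passed: it was -2.95 in the mature zone and 0.20 in the meristem, which differ by -3.15 (SE 0.64, adjusted p = 0.00826). The gap of 5p minus 3p was flagged for the same reason, with a chilling difference of 3.35 in the mature zone and -0.39 in the meristem, which differ by 3.74 (SE 0.71, adjusted p = 0.00129). The cause of either was not tested. No check for a single array far from its group could be made on averages.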

How the results depend on the processing

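No paired analysis was possible because the columns are averages over the arrays of a group and carry no replicate number; for that reason no replicate was left out either. Without moderation, with 1 probe set per profile and with averages under log2 2 set to 2, all single-arm values kept their direction and their side of the threshold. The cause of the changes below was not tested.

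With quantile normalization the 3p difference between chilled and control leaves was -0.914 in the mature zone and -0.295 over the zones, neither past the threshold, and the 5p difference over the zones turned to -0.0389, beside 0.0133. The 3p chilling difference of mature zone against meristem was -1.59 and its F test gave 0.203, and the gap between arms widened with chilling by 1.32 in the mature zone and 0.256 over the zones; none of these passed.

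With median subtraction the 3p values were -0.545 in the mature zone, -0.433 over the zones and -0.88 for mature zone against meristem, none past the threshold; the value for mature against elongation zone turned to 0.545, and the F test gave 0.135. The 5p chilling difference passed, at 2.81 in the mature zone, 0.867 over the zones, 2.86 for mature zone against meristem and 2.96 for mature against elongation zone, with 5.11e-07 in the F test, while that for elongation zone against meristem turned to -0.095. Along chilled leaves the 5p fall turned to 2.61 from elongation to mature zone and to 2.60 from meristem to mature zone. Along control leaves these were -0.345 and -0.265, no longer passing, and elongation zone against meristem turned to 0.08.

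The gap over the zones did not pass with fully opposed errors (1.30), and its chilling difference for mature against elongation zone passed with 1 probe set per profile (2.41).

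The background count of called probe sets changed by over 1.5 times as follows. Counts with 1 probe set per profile are out of 147 profiles and all others are out of 228 probe sets. A smaller count in that setting is therefore not by itself a smaller share. Chilling in the meristem gave 19 calls, against 3 with median subtraction, 4 without moderation, 2 with 1 probe set per profile and 3 with the floor. In the elongation zone it gave 2, against 1 with quantile normalization, 4 with median subtraction, 5 without moderation and 4 with 1 probe set per profile. In the mature zone it gave 32, against 50, 204 and 21 with quantile normalization, median subtraction and 1 probe set per profile. Over the zones it gave 42, against 169 with median subtraction, 20 with 1 probe set per profile and 25 with the floor. Mature against elongation zone gave 113 in control leaves, against 72 with quantile normalization and 73 with the floor, and 148 in chilled leaves, against 91 and 84. With 1 probe set per profile, elongation zone against meristem gave 52 in place of 106 (control) and 66 in place of 118 (chilled), and mature zone against meristem 81 in place of 133 (control) and 109 in place of 177 (chilled). The chilling effect of mature against elongation zone gave 5, against 27, 190, 9 and 0 with quantile normalization, median subtraction, 1 probe set per profile and the floor, and that of mature zone against meristem 19, against 38, 194 and 11 with the first 3.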
